A study of Mus musculus with 6 samples.

Results

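Tubular injury markers are transcripts used to recognise stressed or damaged epithelium of the kidney tubule. The set described here holds 10 genes, Havcr1, Lcn2, Clu, Krt8, Krt18, Krt19, Spp1, Vcam1, Sox9 and Cd44, of the 57180 gene IDs listed in the deposited tables. They were chosen by name and each matched 1 Ensembl gene ID. Kidneys came from 6 wildtype male C57BL/6J mice, 7 weeks old when obtained. Of these, 3 received deionized water (vehicle, 0 mg/kg) and 3 received 200 mg/kg of cationic polystyrene nanoparticles (nanoplastic). Dosing was oral, daily and lasted 6 weeks in both groups. Each library came from a separate mouse, so the errors given are between animals. Whole tissue was used, and in such samples fewer cells of a type and less RNA per cell cannot be told apart.

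Healthy proximal tubule cells carry a brush border and express transport genes. After ischaemia or a toxin, surviving cells lose part of that programme and switch on genes of attachment, secretion and cytoskeleton. Havcr1 encodes kidney injury molecule 1, which lets tubule cells take up dying neighbours, and Lcn2 encodes a secreted protein that binds iron-carrying siderophores, and both are standard markers of acute injury. Sox9 is a transcription factor of regenerating tubule cells, and Vcam1 marks cells whose repair has stalled. Several of the others are also made in undamaged kidney: Spp1 and Clu by tubule segments, and keratins by the collecting duct and by the urothelium that lines the renal pelvis.

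The libraries held 19408534 to 26292760 expected counts. Levels are given in CPM, each gene's count scaled to the size of its library, after TMM normalization, which also corrects for composition. Defining transcripts of the proximal tubule were abundant in every library, among them Lrp2, an endocytic receptor, at 7197 to 8748 CPM. Nanoplastic 1 stood apart in transcripts of urothelium and fat and in some of the medulla. Its urothelial markers summed to 51.8 CPM against 10.2 to 19 CPM in the other 5 libraries, and Akr1b3, an inner medullary enzyme of osmolyte synthesis, reached 260.4 CPM against 48.8 to 77.2 CPM. The inner medullary markers summed to 1712 CPM in nanoplastic 1 and 1387 to 1696 CPM elsewhere. That sum rests largely on Fxyd2 and Slc5a3, at 836 and 389.5 CPM in nanoplastic 1, where neither was highest. Akr1b3, Cryab, Sgk1, Cldn4 and, narrowly, Slc14a2 were highest there, Cryab at 82.5 CPM against 16.3 to 27.1 CPM. The median log2 fold change of these markers was 0.34, and -0.25 without nanoplastic 1. Fat cell markers summed to 269.7 CPM in nanoplastic 1 and 102.2 CPM in vehicle 3, against 48.9 to 55.2 CPM in the other 4. Adipoq, the fat cell hormone adiponectin, measured 18 CPM in nanoplastic 1, 5.52 CPM in vehicle 3 and at most 0.104 CPM elsewhere. Values that rest on these libraries are given with and without them.

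None of the injury markers passed the test. Of the 9 that were tested, 0 had an adjusted p under 0.05 in edgeR's quasi-likelihood test, where 0% of the 18092 genes tested passed. At an unadjusted p under 0.05 there were 2, Clu on the lower side and Krt8 on the higher side, against 7.42% of all genes (3.61% lower and 3.8% higher). Limma-voom also passed 0 of the 9, and DESeq2 0 of the 7 to which it gave an adjusted p. The groups did not overlap in 1 marker, Krt8, which was higher in nanoplastic, against 12.9% of all genes (6.54% higher and 6.32% lower). The median log2 fold change of the 9 was -0.03, and that of all genes tested was 0.01. Sox9 had too few counts to be tested. The 95% interval of the fold change excluded 2-fold in either direction for 6 of the 9, against 84.4% of all genes tested. The exceptions were Havcr1, Krt18 and Krt19.

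**Figure D1:**
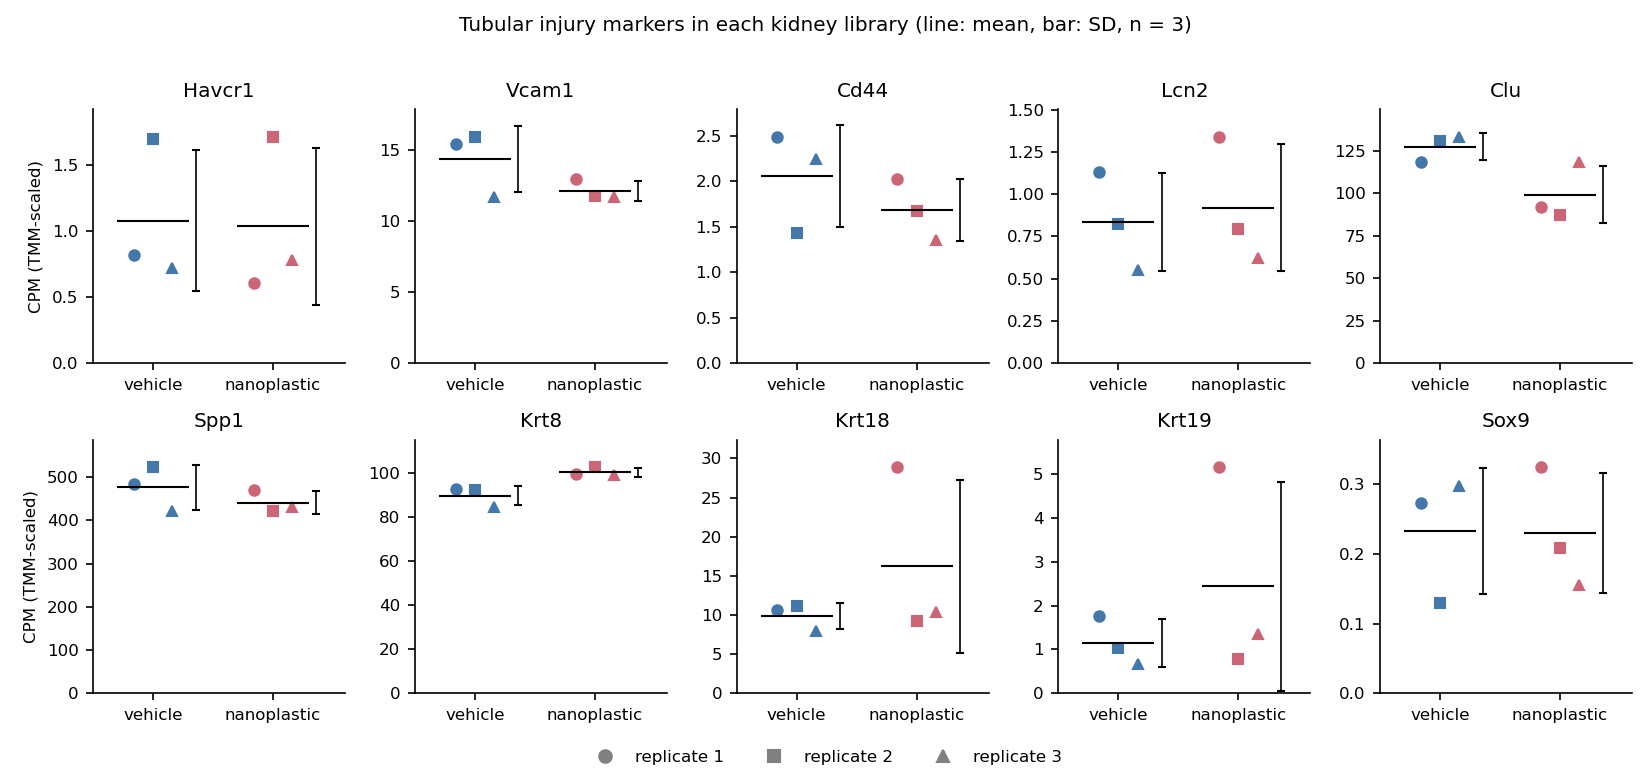
Level of each of the 10 markers in CPM (y axis, starting at 0) in the 3 vehicle and 3 nanoplastic libraries. Each symbol is 1 mouse, lines are group means and bars are SD (n = 3). The groups are separate in Krt8 alone, and nanoplastic 1 lies far above the other 5 libraries in Krt18 and Krt19.

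Among the surface proteins, Havcr1 was scarce and varied as much within a group as across both. It measured 0.818, 1.69 and 0.722 CPM in vehicle 1, 2 and 3, and 0.609, 1.71 and 0.780 CPM in nanoplastic 1, 2 and 3. One mouse of each group was high, and the other mice of the group lay close together. The ratio of highest to lowest library was 2.34 in vehicle and 2.81 in nanoplastic. These levels rest on 15 to 41 counts per library, and the summed counts were 77 in vehicle (95% exact Poisson interval 60.8 to 96.2) and 71 in nanoplastic (55.5 to 89.6). Such intervals cover counting error only. In log2, the fold change was -0.03 (SE 0.45, 95% interval -1.02 to 0.97, edgeR adjusted p = 0.994). Its sign turned when vehicle 2 (0.44), nanoplastic 1 (0.28) or nanoplastic 3 (0.11) was left out, and without nanoplastic 2 it was -0.64. The interval reaches about 2-fold to either side, and a smaller change in Havcr1 was not detectable at this depth and spread. Scaled by library totals alone the value was 0.017, and in limma on log2(TPM + 1) it was 0.087.

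The Havcr1 level per length depended on which transcripts the reads were assigned to. The deposited tables give a gene length averaged over transcripts by their estimated share. For Havcr1 this was 1982 bases in 4 libraries, 1657 bases in nanoplastic 1 and 1468 bases in nanoplastic 2. In GENCODE vM21, an annotation of another build matched here by transcript ID, the 4 Havcr1 transcripts measure 565, 1892, 1982 and 2030 bases. With these lengths, an average below 1892 bases includes a share of the 565-base transcript. In deposited TPM, a share of transcripts scaled for length, Havcr1 reached 0.75 in nanoplastic 2 and 0.46 in vehicle 2, whereas the same 2 libraries were alike in CPM. With 41 and 39 counts in these libraries the difference in length is an estimate from few reads.

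Vcam1 encodes an adhesion molecule that binds integrins of leukocytes, and it is made by endothelium as well as by tubule cells. It measured 15.4, 15.9 and 11.6 CPM in vehicle and 12.9, 11.8 and 11.6 CPM in nanoplastic. Vehicle 1 and 2 lay above all 3 nanoplastic mice, and vehicle 3 lay level with the lowest of them. This gave a log2 fold change of -0.24 (SE 0.13, 95% interval -0.52 to 0.04, edgeR adjusted p = 0.708). Without vehicle 3 it was -0.37, and the adjusted p was 0.453. Without vehicle 3 and nanoplastic 1 together it was -0.41 (edgeR adjusted p = 0.234). Endothelial markers beside it showed no such pattern. Their sum was 591 to 613 CPM in vehicle and 579 to 636 CPM in nanoplastic, with 4 of 10 positive and 6 negative, and Pecam1 had a log2 fold change of 0.05 (SE 0.09).

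Cd44 encodes a receptor for hyaluronan and osteopontin that is carried by leukocytes, by stroma and by regenerating tubule cells. It measured 2.49, 1.43 and 2.25 CPM in vehicle and 2.03, 1.67 and 1.35 CPM in nanoplastic. The groups overlapped, since vehicle 2 lay below nanoplastic 1 and 2. Nanoplastic over vehicle, the log2 fold change was -0.28 (SE 0.27, 95% interval -0.87 to 0.31, edgeR adjusted p = 0.833). It was -0.11 without vehicle 1, -0.48 without vehicle 2 and -0.44 without nanoplastic 1. Among leukocyte markers, log2 fold changes of macrophage markers were negative in 11 of 11, and their sum was 123 to 133 CPM in vehicle and 111 to 117 CPM in nanoplastic. The median log2 fold change of these 11 was -0.19, against 0.01 for all genes tested, and 0 of them passed in edgeR. Adgre1, the macrophage surface protein F4/80, had a log2 fold change of -0.35 (SE 0.15, edgeR adjusted p = 0.659). Ptprc, the CD45 antigen of all leukocytes, ranged from 27.3 to 31.0 CPM in vehicle mice and from 23.0 to 26 CPM in treated mice (log2 fold change -0.30, SE 0.08, edgeR adjusted p = 0.501). Of 7 lymphocyte markers tested, Ptprc among them, 5 were negative and 2 positive, Cd2 at 0.14 (SE 0.49) and Cd8a at 0.12 (SE 0.35). The part of these cells in the Vcam1 and Cd44 values was not tested.

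Of the secreted markers, Lcn2 was as scarce as Havcr1. It measured 1.13, 0.824 and 0.552 CPM in vehicle and 1.34, 0.793 and 0.624 CPM in nanoplastic. The 2 groups spanned nearly the same range, with nanoplastic 1 the highest of all. Its log2 fold change was 0.16 (SE 0.38, 95% interval -0.67 to 0.99, edgeR adjusted p = 0.945). It was -0.23 without nanoplastic 1 and -0.06 without vehicle 3. The summed counts were 61 in vehicle (95% exact Poisson interval 46.7 to 78.4) and 64 in nanoplastic (49.3 to 81.7). Neutrophils store lipocalin-2 in granules, so their markers were read beside it. Of 8 neutrophil markers, Ly6g and Camp were at 0 in every library, and all 8 summed to 0.977 to 1.36 CPM in vehicle and 0.877 to 1.87 CPM in nanoplastic. S100a8 and S100a9, subunits of calprotectin, were higher in all treated mice than in any vehicle mouse by CPM, as were 6.54% of all genes tested. S100a8 had 7, 6 and 1 counts in vehicle and 7, 7 and 9 in nanoplastic, and was not tested. S100a9 had 9, 4 and 7 counts against 10, 11 and 12, with a log2 fold change of 0.80 (SE 0.42, edgeR adjusted p = 0.708). Csf3r, the other neutrophil marker tested, had 17, 14 and 15 counts against 20, 2 and 15, with a log2 fold change of -0.22 (SE 0.52). The part of neutrophils in the Lcn2 values was not tested.

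Clu encodes clusterin, a secreted chaperone, and had the lowest p of the set. It measured 118.1, 130.5 and 133.2 CPM in vehicle 1, 2 and 3, and 91.9, 86.9 and 118.5 CPM in nanoplastic 1, 2 and 3. Nanoplastic 1 and 2 lay below every vehicle mouse, and nanoplastic 3 lay level with vehicle 1. The group means were 127.3 ± 8.06 and 99.1 ± 17 CPM (SD, n = 3 each). In log2, the fold change was -0.36 (SE 0.11, 95% interval -0.60 to -0.13, edgeR adjusted p = 0.501). Leaving out each library in turn gave -0.51 (without nanoplastic 3) to -0.28 (without nanoplastic 2), with adjusted p at or above 0.123. Its direction is lower after nanoplastic, while in injured tubules Clu is known to be raised.

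Spp1 encodes osteopontin, a phosphoprotein of urine and matrix that binds integrins and CD44, and it was by far the most abundant marker. It measured 483.3, 524.0 and 421.6 CPM in vehicle and 471.2, 421.5 and 430.9 CPM in nanoplastic. The groups overlapped, with vehicle 3 and nanoplastic 2 practically equal. This gave a log2 fold change of -0.11 (SE 0.09, 95% interval -0.30 to 0.08, edgeR adjusted p = 0.797). It was -0.04 without vehicle 2 and -0.19 without vehicle 3. The interval is narrow, and a rise of more than 0.08 on the log2 scale lies outside it. Without vehicle 3 and nanoplastic 1, the libraries with fat transcripts, the value was -0.24 (adjusted p = 0.270).

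Keratins are the intermediate filament proteins of epithelium. Keratin 8, of type II, forms filaments with a type I partner, mostly keratin 18 and in some epithelia keratin 19. Krt8 measured 92.5, 92.1 and 84.5 CPM in vehicle and 99.5, 102.7 and 98.8 CPM in nanoplastic. All 3 nanoplastic mice lay above all 3 vehicle mice, and the spread within the nanoplastic group was small, with a ratio of highest to lowest of 1.04. Nanoplastic over vehicle, the log2 fold change was 0.16 (SE 0.06, 95% interval 0.02 to 0.30, edgeR adjusted p = 0.611). It was 0.17 without nanoplastic 1 and 0.12 to 0.18 over all single libraries left out. The expected counts of Krt8 were not whole numbers in 6 of 6 libraries, so some of its reads were shared with other loci.

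The partner chains did not follow Krt8. Krt18 measured 10.6, 11.1 and 7.94 CPM in vehicle and 28.9, 9.27 and 10.5 CPM in nanoplastic. Only nanoplastic 1 was high, at 2.93-fold the mean of nanoplastic 2 and 3, which lay within the vehicle range. Its log2 fold change was 0.73 (SE 0.37, 95% interval -0.08 to 1.54, edgeR adjusted p = 0.696) with all libraries and -0.01 without nanoplastic 1. Krt19 measured 1.75, 1.04 and 0.680 CPM in vehicle and 5.16, 0.793 and 1.35 CPM in nanoplastic. Again nanoplastic 1 alone was high, at 4.81-fold the mean of the other nanoplastic mice. In log2, the fold change was 1.10 (SE 0.63, 95% interval -0.29 to 2.48, edgeR adjusted p = 0.725) and -0.17 without nanoplastic 1. In TPM, the ratio of Krt18 to Krt8 was 0.413 in nanoplastic 1, against 0.128 to 0.172 elsewhere. Its ratio of Krt19 to Krt8 was 0.0747, against 0.00988 to 0.0292 elsewhere.

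Krt8 and Krt18 are neighbours on mouse chromosome 15, on opposite strands, and Lcn2 shared with Krt18 and Krt19 its highest level in nanoplastic 1. Bases before their start sites are shown as description only, and a link between them and the levels was not tested. The sequences are from RefSeq (GRCm38.p6, an older build than the GRCm39 of the counts) and are limited to bases outside the exons of GENCODE vM21. Each stretch is the longest run of such bases within the 250 before the start. The rest of those 250 bases was not searched, so a motif without a match here can still lie there. Capitals mark motif matches on either strand. The motifs searched were the TATA box TATAAA, the AP-1 site TGANTCA, the STAT site TTCNNNGAA, the GC box GGGCGG, the CCAAT box, the GATA site AGATAA, the SOX site ACAAAG and the NF-kB motif.
Krt8, chr15:102004483-102004592, minus strand: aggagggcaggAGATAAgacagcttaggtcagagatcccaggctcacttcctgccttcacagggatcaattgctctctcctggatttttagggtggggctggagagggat
Krt18, chr15:102027966-102028179, plus strand: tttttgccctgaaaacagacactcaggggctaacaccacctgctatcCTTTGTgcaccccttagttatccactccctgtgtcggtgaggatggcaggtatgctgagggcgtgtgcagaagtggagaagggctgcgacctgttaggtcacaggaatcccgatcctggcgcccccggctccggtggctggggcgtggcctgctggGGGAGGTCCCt
Lcn2, chr2:32387798-32387850, minus strand: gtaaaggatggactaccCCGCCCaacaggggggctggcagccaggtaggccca
The 110 bases of Krt8 hold 1 AGATAA, which 4.93% of all windows of that length and place hold. The 214 bases of Krt18 hold 1 ACAAAG, read on the opposite strand, as do 14.4% of windows. The 53 bases of Lcn2 hold 1 GGGCGG on the opposite strand, as do 12.3%. The NF-kB motif was searched with A or T at position 6, which gave no match in the 3 stretches. With any base there, a form added after the data were seen, Krt18 holds 1 match, near its 3' end, as do 6.12% of windows.

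**Figure D2:**
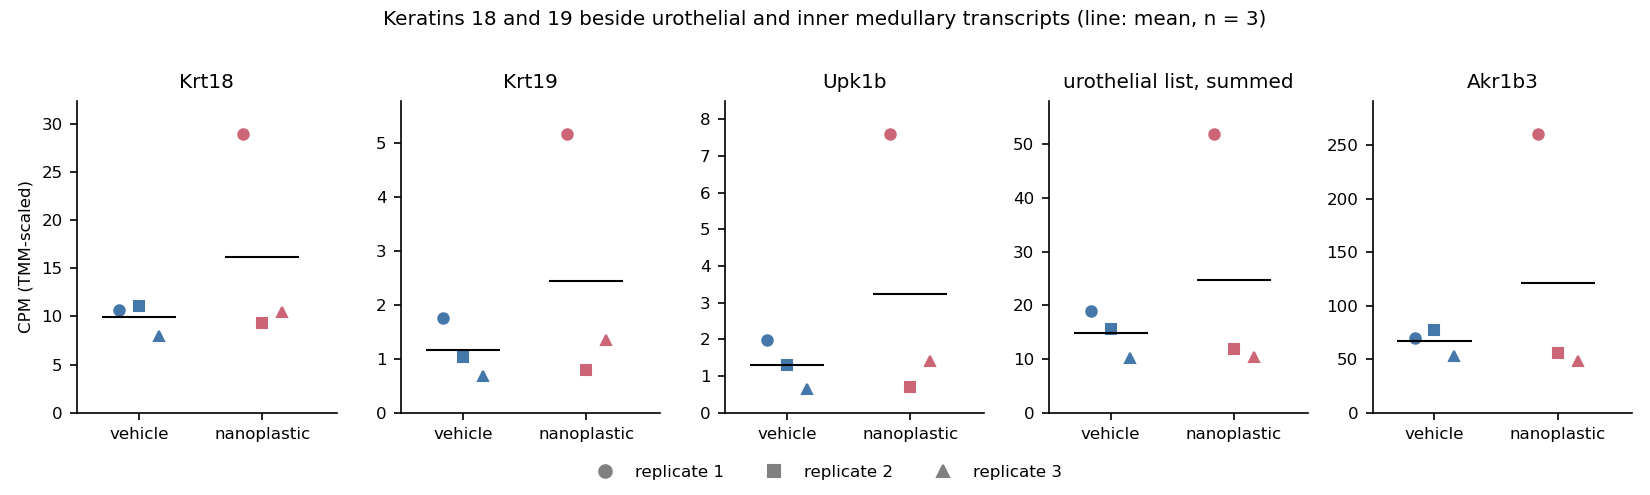
Levels in CPM (y axes, starting at 0) of Krt18, Krt19, the urothelial gene Upk1b, the sum of the urothelial marker list and the inner medullary gene Akr1b3. Symbols are single mice and lines are group means (n = 3). In all 5 panels nanoplastic 1 is the highest library, at 28.9 CPM for Krt18, 5.16 CPM for Krt19 and 7.59 CPM for Upk1b.

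Many transcripts of the urothelium, and some of the collecting duct, were also highest in nanoplastic 1. Upk1b, a uroplakin of the urothelial plaque, measured 1.99, 1.3 and 0.637 CPM in vehicle and 7.59, 0.710 and 1.40 CPM in nanoplastic. Of 12695 protein-coding genes with a mean of at least 1 CPM, it had the highest Pearson correlation of log2 CPM with Krt19 over the 6 libraries (r = 0.995, Spearman's rho = 1). It ranked the 6 libraries in the same order as Krt19. Without vehicle 3 and nanoplastic 1, the libraries farthest from the median of Krt19, r was 0.957. The next in likeness were Stat5b (r = 0.994) and Napepld (r = 0.993), and 177 genes, or 1.39%, had an r over 0.9. These correlations describe libraries that share a tissue and a scaling, and genes picked for the highest of many values carry no test.

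Upk3a, another uroplakin, reached 4.87 CPM in nanoplastic 1 against 0.382 to 1.56 CPM in the other 5 libraries. Krt20, a keratin of superficial urothelial cells and also an injury gene, reached 23 counts in nanoplastic 1, where the remaining mice had 0 to 4. Krt5, a basal keratin, had 0.893 CPM in nanoplastic 1 and at most 0.351 CPM elsewhere. The other urothelial keratins on the list were not highest there. Krt15 measured 0.772 CPM in nanoplastic 1 and 1.29 CPM in vehicle 1, Krt14 0.0812 and 0.312 CPM, and Krt17 0 and 0.195 CPM. Upk2, a further uroplakin, was nearly equal in these libraries at 0.244 and 0.234 CPM. Collecting duct markers summed to 373.3, 375.0 and 361.2 CPM in vehicle and 492.5, 423.6 and 387.7 CPM in nanoplastic. This sum was highest in nanoplastic 1, and every treated mouse lay above every vehicle mouse. Of the 11 genes, 7 were positive and 4 negative, and 2 lay higher in nanoplastic without overlap, against 6.54% of all genes tested. Aqp2, the water channel of principal cells, reached 148.7 CPM in nanoplastic 1 against 43.3 to 61.7 CPM elsewhere. Its log2 fold change was 0.65 (SE 0.34), and -0.02 without nanoplastic 1. Cldn4, a claudin of collecting duct and urothelium, measured 21.0 CPM in nanoplastic 1 and 8.92 to 12.2 CPM elsewhere. Krt7, a keratin of collecting duct and urothelium, was even across libraries at 41.9 to 47.8 CPM. The proximal tubule list moved the other way in this library, with a sum of 26960 CPM against 30955 to 32481 CPM in the other 5. The part of the urothelial, collecting duct and medullary transcripts in the Krt18, Krt19 and Lcn2 values was not tested.

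Havcr1 and Lcn2 were high in different libraries, and different genes tracked them. The genes most like Havcr1 over the 6 libraries were Cct4, a chaperonin subunit (r = 0.987), Mcl1, an inhibitor of apoptosis (r = 0.980), and Txndc9 (r = 0.978). They shared its high values in vehicle 2 and nanoplastic 2, though on a small scale: Mcl1 measured 111.4 and 112.8 CPM there and 91.1 to 100.2 CPM in the other 4. Without vehicle 2 and nanoplastic 2, r was 0.95, 0.939 and 0.613. For Havcr1, 46 genes or 0.362% had an r over 0.9. The genes most like Lcn2 were Fam20c (r = 0.994), Armcx2 (r = 0.992) and Oasl1 (r = 0.992), all highest in nanoplastic 1.

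Sox9, the transcription factor of the set, was near the limit of detection. It had 7, 3 and 7 counts in vehicle 1, 2 and 3, and 8, 5 and 3 counts in nanoplastic 1, 2 and 3. The groups overlapped fully. The sums were 17 counts (95% exact Poisson interval 9.90 to 27.2) and 16 counts (9.15 to 26), and a difference was not detectable at this depth.

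**Figure D3:**
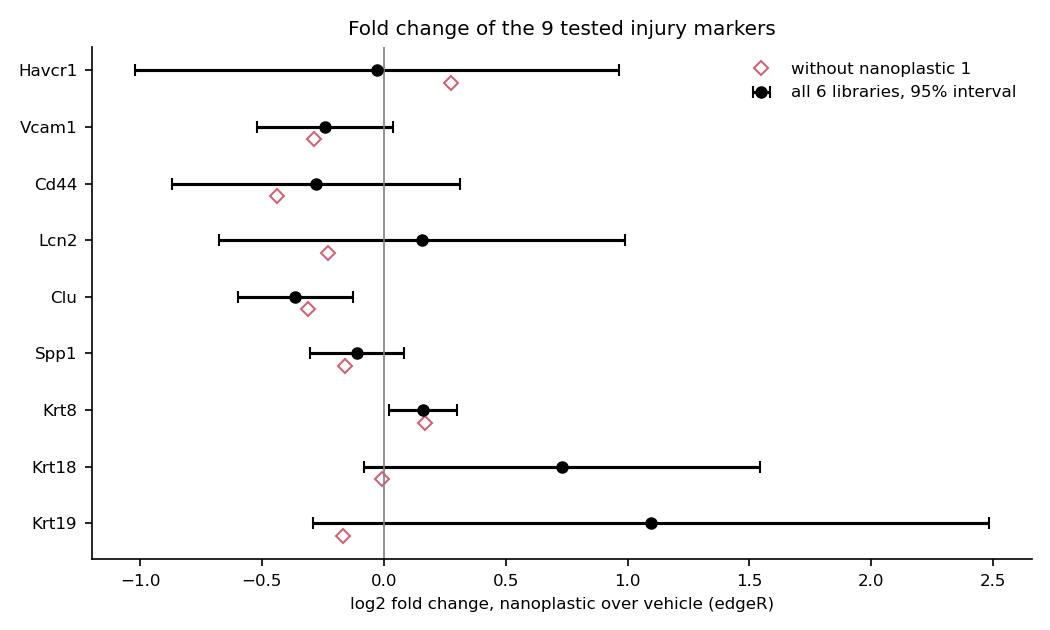
Log2 fold change of nanoplastic over vehicle (x axis) for the 9 markers tested. Black points with bars are the edgeR estimates and 95% intervals from all 6 libraries, and open diamonds are the estimates without nanoplastic 1. Krt18 and Krt19 lie at 0.73 and 1.10 with all libraries and at -0.01 and -0.17 without nanoplastic 1, while the paired values of Krt8 (0.16 and 0.17) and Clu (-0.36 and -0.31) lie close together.

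Compared per length, the markers fell into abundant and scarce ones. The TPM used for this comparison was rescaled without Rn7s1 and Rn7s2, genes of the 7SL RNA, whose share of deposited TPM was 55.5% to 59.4%. Spp1 was the highest at a mean of 465.8 rescaled TPM, rank 174 of 17645 protein-coding genes with a level. Clu (89.1 rescaled TPM, rank 1053) and Krt8 (66.5 rescaled TPM, rank 1381) followed, with ranges of 68.5 to 110.7 and 60.8 to 73.9 that overlapped. Krt18 (13) and Vcam1 (5.58) were intermediate, and Krt18 exceeded Vcam1 in each of the 6 libraries. Krt19 (1.78), Lcn2 (1.51), Havcr1 (0.824) and Cd44 (0.740) were low, and each overlapped the next in this order over the libraries, while Lcn2 (1.03 to 2.36) stayed above Cd44 (0.457 to 0.988). Without nanoplastic 1, a mean added after the data were seen, Krt19 was at 1.07 and Lcn2 at 1.34 rescaled TPM, the opposite order, and Krt18 was at 9.76. Sox9 was the lowest at 0.0740 rescaled TPM, rank 15626.

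The wider programme of the injured tubule was read from 40 other genes. Of these 36 were tested, 17 were positive and 19 negative, 0 passed in edgeR, and the median log2 fold change was -0.03 against 0.01 for all genes tested. Without nanoplastic 1 the median was -0.15. On the lower side, Tnfrsf12a, the receptor of the cytokine TWEAK, measured 9.43, 11.4 and 8.84 CPM in vehicle mice and 7.72, 7.47 and 8.32 CPM in treated mice, a log2 fold change of -0.34 (SE 0.13). Itgb6, an epithelial integrin subunit that activates TGF-beta, averaged 226.9 ± 18.3 CPM against 201.6 ± 14.6 CPM after nanoplastic (SD, n = 3 per group), with a log2 fold change of -0.17 (SE 0.08). Tpm1, a tropomyosin, and S100a11, a calcium-binding protein, followed at -0.17 (SE 0.09) and -0.35 (SE 0.19). The groups did not overlap in Tnfrsf12a, Itgb6 and S100a11, 3 of the 36, all lower in nanoplastic, and over all genes tested 6.32% lay lower without overlap.

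On the higher side, the values of Nupr1 and S100a6 were those of 1 library. Nupr1, a stress-induced chromatin protein, measured 24.9 CPM in nanoplastic 1 and 3.55 to 6.81 CPM in the other 5, and its log2 fold change went from 0.99 to -0.52 without nanoplastic 1. S100a6 measured 28.3 CPM there and 5.47 to 9.43 CPM elsewhere, and went from 0.78 to -0.31. Cp, which encodes ceruloplasmin, had a log2 fold change of 0.20 (SE 0.11) and 0.07 without nanoplastic 1. Ccnd1, a cyclin of entry into the cell cycle, had 0.12 (SE 0.09). Nanoplastic 1 was the highest library for 16 of the 36 genes, against 21.8% of all genes tested, and for 3 of the 9 tested markers, Lcn2, Krt18 and Krt19.

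Other genes of this list are given whatever their values. Cdh6, Sox4 and Vim, a cadherin, a transcription factor and an intermediate filament of dedifferentiated cells, gave -0.07 (SE 0.14), 0.01 (SE 0.10) and 0.01 (SE 0.13) in log2. C3, the complement component, had -0.05 (SE 0.18), Krt7 had -0.02 (SE 0.07) and Prom1, a stem cell surface protein, had -0.12 (SE 0.08). Ccl2, a chemokine that draws monocytes, had 5 to 9 counts in each library. Timp1, an inhibitor of matrix proteases, had 7, 13 and 6 counts in vehicle and 2, 4 and 4 in nanoplastic, with groups that did not overlap in CPM. Ccl2 and Timp1 were below the count filter and have no estimate.

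**Figure D4:**
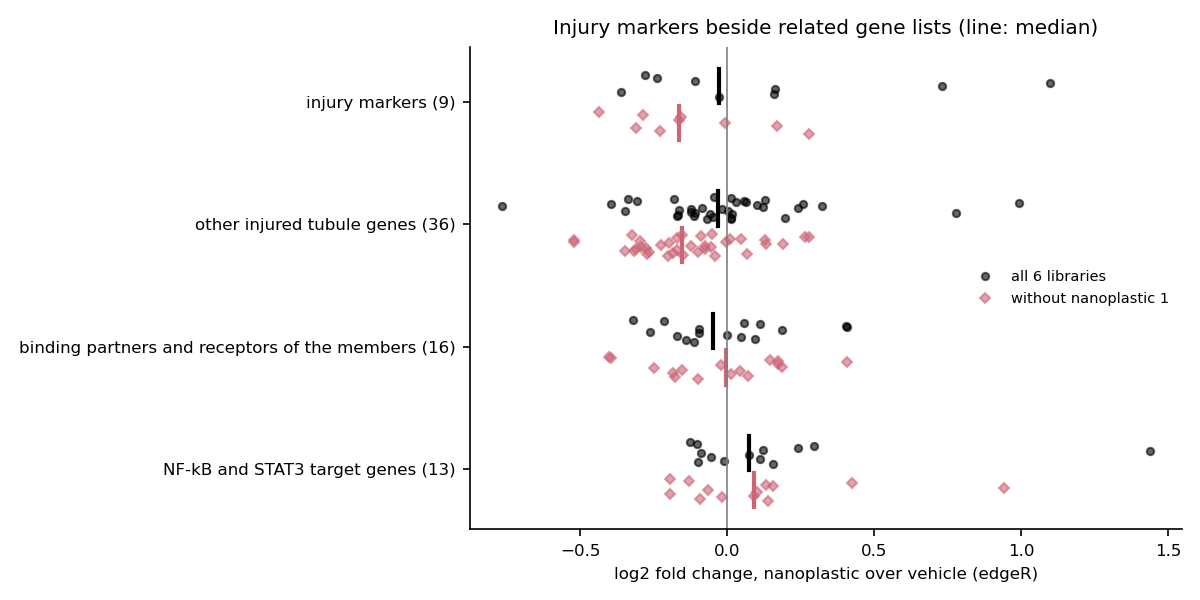
Log2 fold change of nanoplastic over vehicle (x axis) for each tested gene of the injury markers and of 3 related lists, with the number of genes in brackets. Black circles are from all 6 libraries, red diamonds without nanoplastic 1, and short lines are medians. The injured tubule list has its median at -0.03 with all libraries and at -0.15 without nanoplastic 1.

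Receptors and partners of the markers were measured in 18 genes. Of the 16 tested, 7 were positive, 9 negative and 0 passed in edgeR, with a median of -0.05. Itga9, an integrin subunit that binds osteopontin and VCAM1, averaged 32.1 ± 1.44 CPM against 26.8 ± 0.820 CPM after nanoplastic (SD, n = 3 per group), and the groups did not overlap. Its log2 fold change was -0.26 (SE 0.07), with an edgeR adjusted p of 0.501. Slc22a17, a receptor for lipocalin-2, averaged 15.2 ± 0.255 CPM against 17.3 ± 0.150 CPM, also without overlap, a log2 fold change of 0.19 (SE 0.08, adjusted p = 0.666 in edgeR). Of the 16 tested, 1 lay higher and 2 lower in nanoplastic without overlap, against 6.54% and 6.32% of all genes tested. Lrp2, which takes up lipocalin-2 and clusterin from the filtrate, had -0.10 (SE 0.11).

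Target genes of NF-kB and STAT3, factors that drive Lcn2 and Vcam1, were read from 20 genes. Of the 13 tested, 7 were positive, 6 negative and 0 passed in edgeR, with a median of 0.07. Cxcl1, a neutrophil-attracting chemokine, had a log2 fold change of 1.44 (SE 0.62, edgeR adjusted p = 0.666) and 0.94 without nanoplastic 1, from 2 to 27 counts per library. Stat3 and Nfkb1 both lay at -0.10 in log2 (SE 0.07 each).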

How the data were processed

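Kidney RNA of 6 mice was sequenced as 1 library each. The submitters' processing notes name RSEM 1.3.3, STAR 2.7.9a, Trim Galore 0.6.6, FastQC and the build GRCm39. Annotation release and strand setting are not given in the sources used here. Per the file headers, each deposited table holds expected counts, TPM, FPKM and gene lengths. The deposited FPKM values were left out. The library kit is not named, so overlapping antisense genes cannot be told apart.

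Expected counts were rounded, filtered with filterByExpr (18092 genes), TMM-scaled and compared by edgeR 4.0.16 under R 4.3.3 (quasi-likelihood, with no covariate). Benjamini-Hochberg adjustment ran over all genes, and 0.05 was the threshold. Each SE is the log2 fold change divided by the square root of F. limma 3.58.1 and DESeq2 1.42.0 gave alternatives. The edgeR step was tested on simulated data. Symbols came from GENCODE vM21 by gene ID (51884) or transcript ID (738).

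The markers and lists were chosen with earlier results of these data known. Beside the 10 markers the text names genes by rule: those of lowest unadjusted p in each list, a fixed set, and those most correlated with Havcr1, Lcn2 and Krt19. Of the genes this rule takes, 1 is not reported here.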

Additional observations from a re-analysis of the deposited data

How the results depend on the processing

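In each alternative run, 0 of the markers tested passed the adjusted threshold. There were 9 tested in most, 10 without the count filter and 7 with DESeq2. Clu, Krt8, Spp1, Vcam1 and Cd44 kept their direction in each of their 15 alternatives. The lowest adjusted p of any marker was 0.0960, for Clu with DESeq2. Havcr1 turned positive with scaling by library totals (0.017), in limma on log2(TPM + 1) (0.087) and log2(TPM + 0.1) (0.20), and without vehicle 3 and nanoplastic 1 together (0.070). Without these 2 libraries Krt18 was -0.14, Krt19 -0.43, Lcn2 -0.45, Vcam1 -0.41 and Clu -0.27. Vcam1 had the lowest edgeR adjusted p of the markers in that run, 0.234, and that of Clu was 0.499. Leaving out single libraries gave -0.64 to 0.44 for Havcr1, -0.0087 to 1.02 for Krt18, -0.17 to 1.54 for Krt19 and -0.23 to 0.45 for Lcn2. DESeq2 gave no adjusted p for Havcr1 and Lcn2.

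Over all genes, edgeR passed 0. DESeq2, without the count filter, passed 20 higher and 35 lower, and edgeR without vehicle 3 and nanoplastic 1 passed 14 higher and 16 lower. The cause was not tested. Leaving out single libraries gave 0 to 6 higher and 0 to 4 lower. In the related lists 0 genes passed under each alternative run for them. No scaling moved the median of all genes by over 0.1 on the log2 scale.

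Same-numbered libraries had correlations of their deviations of 0.04, -0.02 and 0.10, and not every library correlated best with its own number, so the numbers do not show pairing. With the replicate block 0 markers passed, and Krt18 and Krt19 had log2 fold changes of 0.59 and 1.01. At an unadjusted p under 0.05 the block gave 4 of 9 markers against 2, with Krt18 and Krt19 added, the markers high in nanoplastic 1. Over all 18092 genes tested it gave 1408 against 1342. Low counts per library, 15 to 41 for Havcr1 and 12 to 33 for Lcn2, limit these markers.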
